A study of Mus musculus with 4 samples.

Results

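Genes of tendon, of the sheath around it and of the junction where muscle meets tendon were followed in spatial transcriptomes of injured mouse tibial muscle. The set held 8 of the 32285 genes counted in every section: Scx, Mkx, Tnmd, Tppp3, Prg4, Cilp, Cilp2 and Col22a1. They were taken by name, as the rows of the count tables that carry these symbols, with no cut on their values. The set and the marker lists used below were chosen with earlier results of these data known. All 8 had at least 10 UMIs (unique molecular identifiers, the counted RNA molecules) over the 4 sections.

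All sections came from tibial muscle of 6 to 8 week old Nse-Bmp4 mice on the C57BL/6 strain, a heterotopic ossification (HO) model in which bone forms in soft tissue after injury. The transgene puts Bmp4 under the neuron-specific enolase promoter, and the uninjured section carried it too. The groups were uninjured muscle (day 0) and muscle 1, 3 and 7 days after injury (1, 3 and 7 dpi, days post-injury), the injury being an injection of cardiotoxin, a toxin that kills muscle fibres. Each group was 1 Visium section, an array of barcoded spots under fresh-frozen tissue in which 1 spot can cover several cells, and the labels state that 3 tibial muscles were mixed for a group. With 1 section per day no difference between days has a replicate check, and no p-value is given. Intervals are 95% intervals that cover counting error only.

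Tendon is built by tenocytes, which are specified by the transcription factors SCX and MKX and lay down collagen fibrils with small proteoglycans between them. A thin sheath and surface cells coated with lubricin let the tendon glide, and muscle fibres anchor in it at the myotendinous junction through a specialised basement membrane. Tendon and its precursor cells are a known site of HO, and SCX-expressing precursors can also give rise to cartilage.

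The sections held 2107, 2667, 3029 and 3032 spots and 43871586, 16777832, 56113066 and 41832640 UMIs at day 0 and 1, 3 and 7 dpi. The section at 1 dpi was the shallowest, with a median of 6322 UMIs per spot against 12120 to 21029 in the others. Between 1539 and 2311 spot barcodes were shared by any pair of sections, since the arrays use the same barcodes. The tissue label was borne out by 9 genes of adult myofibres, which took 6.33% to 19.9% of UMIs. Cartilage genes summed to 1445 CPM (UMIs per 1000000 UMIs of the section) at 7 dpi and to 1.09 to 1.97 CPM before. Bmp4 itself stood at 9.48, 2.68, 4.99 and 9.49 CPM. The plane in which a muscle is cut sets how much tendon a section contains, so the plane and the day cannot be told apart. Fewer cells of a type and less RNA per cell cannot be told apart either.

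Promoter sequences from RefSeq matched 3 of the 8 members, Tnmd, Cilp and Cilp2, and these are shown so that the letters upstream of the genes can be read beside their levels. The windows are the 250 bases upstream of each gene's start in RefSeq (build GRCm38.p6, the assembly that mm10 names), at chrX:133850758-133851007 on the plus strand for Tnmd, chr9:65264930-65265179 on the plus strand for Cilp and chr8:69887393-69887642 on the minus strand for Cilp2, written 5′ to 3′. Capitals mark each match to CANNTG, the core of the E-box that basic helix-loop-helix factors such as SCX bind, a pattern that reads the same on both strands.
Tnmd: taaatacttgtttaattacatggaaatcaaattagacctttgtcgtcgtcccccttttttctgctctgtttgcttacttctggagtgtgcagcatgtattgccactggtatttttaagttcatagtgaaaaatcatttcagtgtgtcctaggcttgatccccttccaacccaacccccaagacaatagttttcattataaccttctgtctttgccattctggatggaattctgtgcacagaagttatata
Cilp: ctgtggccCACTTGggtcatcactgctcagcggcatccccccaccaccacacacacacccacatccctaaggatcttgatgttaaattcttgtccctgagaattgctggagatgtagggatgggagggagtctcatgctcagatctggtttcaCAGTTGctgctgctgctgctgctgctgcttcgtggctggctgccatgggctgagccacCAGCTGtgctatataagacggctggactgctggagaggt
Cilp2: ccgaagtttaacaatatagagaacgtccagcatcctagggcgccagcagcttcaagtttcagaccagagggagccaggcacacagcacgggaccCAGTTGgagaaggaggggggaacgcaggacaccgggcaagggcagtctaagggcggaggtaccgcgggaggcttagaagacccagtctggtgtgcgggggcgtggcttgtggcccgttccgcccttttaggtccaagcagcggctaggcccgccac
The Tnmd window held 0 matches, the Cilp window 3 and the Cilp2 window 1. Of all 32851 RefSeq promoter windows of this length, 66.2% held at least 1 match and 12.2% at least 3, so a match as such is common. A match is a string of letters and not a site shown to be bound.

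Across the whole set, 3 members were at least 2-fold higher than day 0 at 1 dpi (Scx, Prg4 and Cilp2), 4 at 3 dpi (the same 3 and Cilp) and 5 at 7 dpi (Scx, Mkx, Tnmd, Prg4 and Cilp2). Only Cilp at 1 dpi and Col22a1 at 3 dpi were at least 2-fold lower, and none was at 7 dpi. Of the 17250 genes with at least 10 UMIs, 23.7%, 31.9% and 32% were as much higher at 1, 3 and 7 dpi, and 9.93%, 8.53% and 2.13% as much lower. The median log2 ratio of the 8 members was 0.13, 1.05 and 1.88, beside 0.27, 0.55 and 0.64 for all genes tested. The set thus had a median below that of all genes at 1 dpi and above it at 3 and 7 dpi. These values depend on the scaling: with TMM factors (a scaling on the bulk of genes) every log2 ratio shifts by -0.19, -0.55 and -0.61, the medians of all genes become 0.08, -0.01 and 0.03, and the members' medians -0.06, 0.50 and 1.27. At 3 dpi the count then becomes 2 higher and 1 lower, since Cilp and Cilp2 pass below 2-fold, and of all genes 20.4%, 18.6% and 14.7% are then higher and 13%, 16.7% and 6.73% lower at 1, 3 and 7 dpi.

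**Figure D1:**
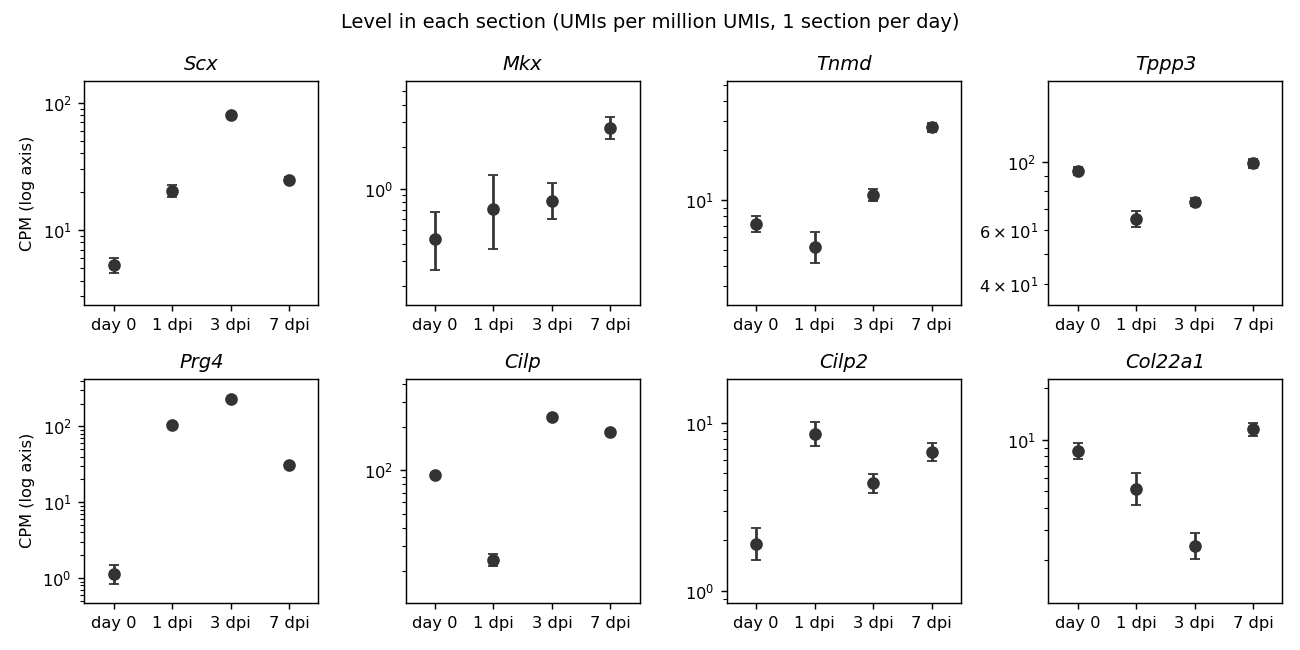
Level of each member in each section, in CPM on a log axis whose range differs between panels. Points are the 4 sections (1 per day) and bars are exact Poisson 95% intervals, which cover counting error only. Scx, Prg4 and Cilp are highest at 3 dpi, Mkx, Tnmd, Tppp3 and Col22a1 at 7 dpi, and Cilp2 at 1 dpi.

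Scx encodes scleraxis, the basic helix-loop-helix factor that marks tendon progenitors (chromosome 15, 76457411 to 76459468). Its level was 5.27 CPM at day 0, 20.4 at 1 dpi, 79.8 at 3 dpi and 24.7 at 7 dpi, from 231, 342, 4479 and 1034 UMIs. The 3 dpi section was the highest and the uninjured one the lowest, and none of the 4 intervals overlapped. Relative to day 0 the level was 3.87-fold higher at 1 dpi (3.27 to 4.59), 15.2-fold at 3 dpi (13.3 to 17.4) and 4.69-fold at 7 dpi (4.07 to 5.44). The share of spots with Scx ran with its level. After every spot was thinned to 2000 UMIs, so that depth is equal (17, 513, 9 and 84 shallower spots were left out), Scx was found in 0.981% of spots at day 0, 3.21% at 1 dpi, 11.8% at 3 dpi and 3.79% at 7 dpi. Without thinning it was in 9.11%, 9.86%, 55.3% and 20.8% of spots. At 3 dpi the 30 spots richest in Scx held 8.19% of its UMIs. Scx lies inside the span of Bop1, a ribosome assembly gene, and how the authors' counting treated strand is not given in the sources used here. Bop1 stood at 22.8, 38.1, 54.5 and 36.9 CPM, a smaller range than that of Scx, but likewise lowest at day 0 and highest at 3 dpi. The part of this overlap in the Scx counts was not tested.

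Mkx encodes mohawk, a homeobox factor needed for normal tendon collagen fibrils. It had the fewest UMIs of the set, 19, 12, 46 and 115 UMIs, or 0.433, 0.715, 0.820 and 2.75 CPM at day 0 and 1, 3 and 7 dpi. The 7 dpi section stood above the other 3, whose intervals overlapped. The ratio to day 0 was 6.35 at 7 dpi (3.89 to 10.9), whereas at 1 dpi it was 1.65 with an interval from 0.731 to 3.58, so a difference was not detectable at this depth. The 2 tendon transcription factors therefore differed in time: from 3 to 7 dpi Scx was 3.23-fold lower (3.02 to 3.46) and Mkx 3.35-fold higher (2.36 to 4.83).

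Tnmd encodes tenomodulin, a membrane glycoprotein of mature tenocytes (chromosome X, 133851008 to 133865577). It stood at 7.18 CPM at day 0, 5.19 at 1 dpi, 10.7 at 3 dpi and 27.6 at 7 dpi, from 315, 87, 602 and 1154 UMIs. The lowest section was that at 1 dpi and the highest that at 7 dpi, 3.84-fold above day 0 (3.39 to 4.37). At 3 dpi, when Scx was 15.2-fold above day 0, Tnmd was 1.49-fold above it (1.30 to 1.72), and this margin shrank to a log2 ratio of 0.03 with TMM factors. Tnmd was confined to few spots at day 0, where 30 spots with 1.75% of all UMIs held 61.0% of its UMIs and 1 spot held 33. At 7 dpi the 30 richest spots held 31.9%.

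Tppp3, a tubulin-binding protein that marks the sheath and paratenon, moved least (chromosome 8, 105467492 to 105471422). It stood at 93.0 CPM at day 0, 65.1 at 1 dpi, 73.7 at 3 dpi and 98.6 at 7 dpi, from 4079, 1092, 4135 and 4126 UMIs. The levels at 1 and 3 dpi were below day 0, with ratios of 0.700 (0.654 to 0.749) and 0.793 (0.759 to 0.828). That at 7 dpi was 1.06 times day 0 by CPM, but below it with TMM factors or DESeq2 size factors, at equal depth per spot, or when mitochondrial, haemoglobin and adult myofibre genes were left out of the total. At 2000 UMIs per spot it was found in 15.5% of spots at day 0 and in 15.5% at 7 dpi.

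Prg4 encodes lubricin, which coats tendon surfaces and joint linings (chromosome 1, 150449412 to 150466221). Its 50 UMIs at day 0 gave 1.14 CPM, against 106 CPM at 1 dpi, 232 at 3 dpi and 31.4 at 7 dpi, from 1771, 13031 and 1313 UMIs. The 3 injured sections were all far above the uninjured one, in which only 44 of 2107 spots held a Prg4 UMI. The ratio to day 0 was 92.6 at 1 dpi (69.9 to 125), 204 at 3 dpi (154 to 275) and 27.5 at 7 dpi (20.8 to 37.3), the largest of the 8 members on each day. At 2000 UMIs per spot Prg4 was found in 0.208% of spots at day 0, 12% at 1 dpi, 29.1% at 3 dpi and 5.71% at 7 dpi. A single spot at 3 dpi held 140 Prg4 UMIs. The end of Prg4 overlaps that of Tpr, a nuclear pore gene, which stood at 36.7, 50.2, 59.3 and 52.7 CPM.

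Cilp and Cilp2 encode cartilage intermediate layer proteins, secreted matrix proteins of cartilage and fibrous tissue. Cilp (chromosome 9, 65265180 to 65280614) stood at 93.0, 23.8, 237 and 185 CPM at day 0 and 1, 3 and 7 dpi, from 4079, 400, 13278 and 7740 UMIs, the first being by coincidence the count of Tppp3 on that day. Cilp2 (chromosome 8, 69880366 to 69887392) stood at 1.91, 8.64, 4.37 and 6.72 CPM, from 84, 145, 245 and 281 UMIs. The pair went opposite ways at 1 dpi: Cilp was 3.90-fold lower than day 0 (3.52 to 4.33) and Cilp2 was 4.51-fold higher (3.43 to 5.98). Cilp was the lowest of its 4 sections at 1 dpi, and Cilp2 the highest. The 5 marker genes of fibroblasts moved with Cilp at 1 dpi, with a summed level of 117 CPM against 490 at day 0 and 4 of 5 at least 2-fold lower, and their part in the result was not tested. By 3 dpi Cilp was 2.55-fold above day 0 (2.46 to 2.64), and at 7 dpi 1.99-fold (1.92 to 2.07), which falls just short of 2.

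Col22a1 encodes the alpha chain of collagen XXII, which is laid down at the myotendinous junction (chromosome 15, 71795795 to 72150979). It stood at 8.62 CPM at day 0, 5.19 at 1 dpi, 2.41 at 3 dpi and 11.5 at 7 dpi, from 378, 87, 135 and 482 UMIs. Its own lowest section was that at 3 dpi, 3.58-fold below day 0 (2.93 to 4.39), on the day on which Scx, Prg4 and Cilp were highest. Between 3 and 7 dpi it was 4.79-fold higher (3.95 to 5.84). The level at 7 dpi was 1.34 times day 0 by CPM, and below day 0 with TMM or DESeq2 factors. Its RNA was concentrated in few spots: at day 0, 30 spots with 1.66% of all UMIs held 67.2% of it, and 1 spot held 50 UMIs. Leaving out the 10 richest spots of each section took the log2 ratio at 3 dpi from -1.84 to -1.29.

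The spots of each section were then split by 2 tendon proteoglycan genes outside the set, Fmod (fibromodulin) and Kera (keratocan). The 5% of spots with the highest share of UMIs in this pair, 105, 133, 151 and 152 spots, are called tendon matrix spots. At day 0 they held 4.88% of all UMIs, but 66.7% of Cilp2, 62.5% of Tnmd, 61.6% of Col22a1, 52.6% of Mkx and 42.0% of Prg4 UMIs. Scx and Cilp had 15.6% and 15.7% of their UMIs there, and Tppp3 7.53%. The share of Mkx rests on 10 UMIs inside and 9 outside. In uninjured muscle the greater part of Cilp2, Tnmd and Col22a1 RNA thus lay beside Fmod and Kera RNA, and most Scx, Cilp and Tppp3 RNA lay elsewhere.

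In these spots 7 members were at least 2-fold higher than in the rest at day 0, 7 at 1 dpi, 5 at 3 dpi and 6 at 7 dpi, where 5.05%, 4.58%, 5.05% and 17.5% of all genes with at least 10 UMIs in the section were. The median ratio of the members was 17.9, 13.8, 7.39 and 5.22, beside 1.12, 1.03, 1.12 and 1.38 over all genes. The lowest Fmod and Kera level among tendon matrix spots was 63.0, 312, 430 and 1224 CPM. At day 0, 1829 of the 2107 spots held no UMI of the pair, and tendon matrix spots had a median of 18713 UMIs in all. A spot of day 0 could thus be taken on very few UMIs of the pair. Fmod and Kera stood at 271, 894, 1285 and 1847 CPM inside and at 4.27, 30.9, 44.4 and 233 CPM outside. Both sides of the ratio thus differ between days, and a smaller ratio on a later day does not by itself show a spread of the member. Tnmd was 32.5 times as high in tendon matrix spots as outside at day 0, 32.8 times at 1 dpi, 20.6 times at 3 dpi and 8.22 times at 7 dpi. Cilp2 had ratios of 39.0, 24.2, 33.0 and 13.2 on the same days. Col22a1 had ratios of 31.3, 13.6, 19.3 and 6.26, and Mkx of 21.6, 14.0, 10.8 and 6.90. These 4 genes stayed concentrated beside tendon matrix RNA on every day.

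Scx did not. It was 3.60 times as high in tendon matrix spots at day 0 (2.45 to 5.15), but 1.15 times at 1 dpi (0.739 to 1.72) and 1.13 times at 3 dpi (0.989 to 1.29), both intervals reaching 1, and 3.13 times again at 7 dpi (2.65 to 3.68). At 3 dpi, 4241 of its 4479 UMIs lay outside tendon matrix spots, at 79.3 CPM against 89.8 CPM inside. Outside these spots the Scx level was 4.67 CPM at day 0. With 2% or 10% of spots, or with Kera, Thbs4 and Chad in place of Fmod and Kera, the ratio of Scx at 1 and 3 dpi was between 0.929 and 1.44. At 3 dpi its interval lay just above 1 with 10% of spots (1.01 to 1.22) and clearly above it with Kera, Thbs4 and Chad (1.24 to 1.53).

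Prg4 was 14.1 times as high in tendon matrix spots at day 0 (7.65 to 25.6, on 21 UMIs inside and 29 outside), 8.39 times at 1 dpi (7.61 to 9.25), 4.02 times at 3 dpi (3.84 to 4.21) and 4.18 times at 7 dpi (3.65 to 4.77). The intervals of day 0 and 1 dpi overlapped, and those of 3 and 7 dpi lay below both. The level inside was 817 CPM at 3 dpi, and outside it was 203 CPM against 0.695 at day 0. Cilp had ratios of 3.63, 16.1, 1.82 and 1.31. At 1 dpi, when Cilp was low in the section as a whole, it stood at 191 CPM in tendon matrix spots and at 11.9 CPM elsewhere, where day 0 had 299 and 82.4 CPM. The level outside these spots was thus further below that of day 0 than the level inside. Tppp3 had ratios between 0.944 and 2.15.

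At 7 dpi, 94 of the 152 tendon matrix spots were also rich in cartilage genes. Without the cartilage spots on either side, an alternative added after the data had been seen, 58 tendon matrix spots were left, and 7 members were at least 2-fold higher in them. The ratio became 29.1 for Cilp2, 22.0 for Tnmd, 21.5 for Mkx, 14.2 for Col22a1, 9.87 for Prg4 and 5.62 for Scx.

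**Figure D2:**
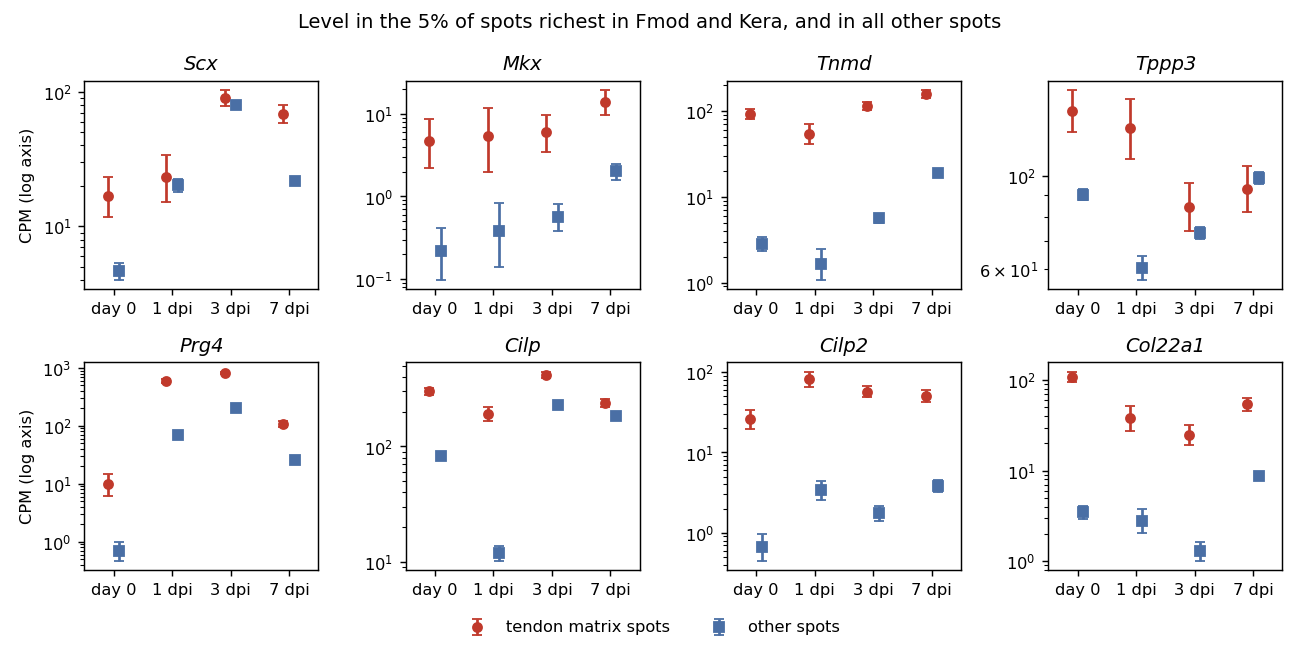
CPM on a log axis in the 5% of spots richest in Fmod and Kera (red circles) and in all other spots (blue squares) of each section. Bars are exact Poisson 95% intervals. Mkx, Tnmd, Cilp2 and Col22a1 keep a wide gap on all days, while the points of Scx nearly meet at 1 and 3 dpi.

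Spots were also ordered by the share of UMIs in 9 adult myofibre genes, cut into 4 groups of equal size, and the lowest group was set against the highest. The lowest group had 15.4%, 4.23%, 1.24% and 5.56% of its UMIs in these genes, the highest 24.2%, 15.1%, 15.3% and 17.3%. In the lowest group 6, 5, 3 and 6 members were at least 2-fold higher at day 0 and 1, 3 and 7 dpi, beside 20.1%, 49.4%, 45% and 44.3% of all genes. With 2 groups in place of 4 the counts were 2, 2, 1 and 7. The count of 5 at 1 dpi includes Mkx on 4 UMIs against 2, with an interval from 0.549 to 42.3. At 3 dpi the median ratio of the members, 1.83, was the same as that of all genes, and only on the other days was it larger.

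Scx showed no detectable gradient at day 0, with 6.20 CPM in the lowest group and 5.63 in the highest (ratio 1.10, 0.769 to 1.58). It was 2.79 times as high in the fibre-poor group at 1 dpi (2.03 to 3.85), 3.08 times at 3 dpi (2.69 to 3.53) and 5.94 times at 7 dpi (4.56 to 7.87). Cilp had the widest ratio at 3 dpi, 6.00 (5.40 to 6.69), with 278 CPM in the fibre-poor group and 46.4 in the fibre-rich one. Of the 115 Mkx UMIs at 7 dpi, 72 lay in the lowest group and 2 in the highest.

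Col22a1 ran the other way at 3 dpi. It stood at 1.20 CPM in the fibre-poor group and 3.31 in the fibre-rich one, a ratio of 0.362 (0.199 to 0.656), from 24 and 26 UMIs, whereas at day 0 the ratio was 3.04 (2.25 to 4.16). No other member had an interval wholly below 1 on any day. The 10% of spots richest in Fmod and Kera were further split at the section's median myofibre share, a split also added after the data had been seen. At 3 dpi Col22a1 stood at 31.5 CPM (22.9 to 42.3) in the 126 fibre-rich tendon matrix spots and at 10.9 (7.82 to 14.7) in the 177 fibre-poor ones. Tnmd stood at 58.7 and 76.7 CPM in the same spots, and Prg4 at 258 and 705. At 7 dpi the order was the same, with 98.8 CPM (60.4 to 153) in only 19 fibre-rich and 37.9 CPM (32.5 to 43.9) in 284 fibre-poor tendon matrix spots. At day 0 it was the opposite, with 23.4 CPM in the fibre-rich and 91.1 CPM in the fibre-poor spots. At 1 dpi Col22a1 stood at 19.7 CPM (13.6 to 27.7) and 41.5 CPM (27.1 to 60.8), with intervals that just overlapped. Fibre-rich and fibre-poor are set within each section and are not like classes between days. The lowest of the 4 groups at day 0 had 15.4% of its UMIs in myofibre genes, and the highest at 3 dpi 15.3%. The part of this in the change of order of Col22a1 between days was not tested.

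**Figure D3:**
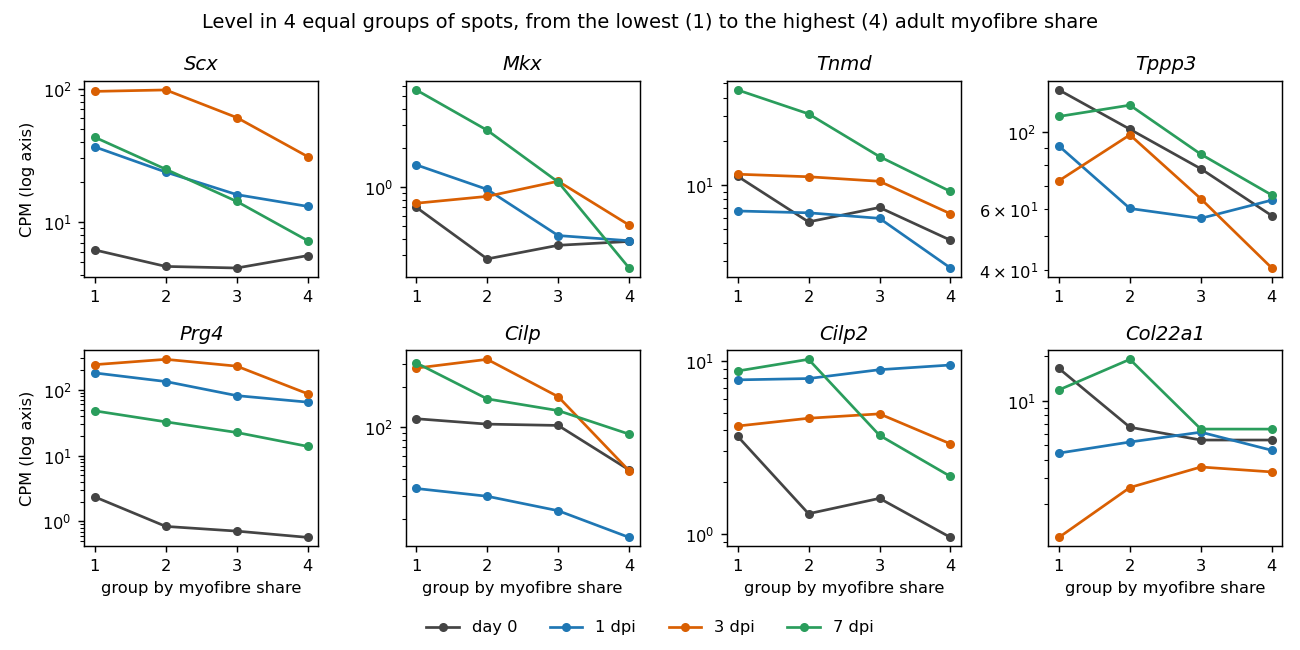
CPM on a log axis in 4 equal groups of the spots of each section, ordered from the lowest (1) to the highest (4) share of UMIs in adult myofibre genes, with 1 line per day. Most lines slope down, that of Col22a1 at 3 dpi slopes up from 1.20 to 3.31 CPM, and that of Scx at day 0 is nearly flat.

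Ectopic cartilage was present at 7 dpi, so the members were compared between the 838 spots with at least 1000 CPM in 8 cartilage genes and the other spots. This cut lies below the 1445 CPM of the section as a whole, so these cartilage spots need not be mainly cartilage. Scx was 39.0 CPM in cartilage spots and 18.9 CPM outside, a ratio of 2.06 (1.82 to 2.33), the only member at least 2-fold higher, where 14.7% of all genes were. Mkx had a ratio of 1.60 (1.07 to 2.35), Cilp 1.23, Tnmd 1.14 and Tppp3 1.08. Prg4 was 1.70-fold lower in cartilage spots (1.48 to 1.95), Col22a1 2.12-fold (1.66 to 2.74) and Cilp2 2.23-fold (1.61 to 3.16). The median ratio over the members was 1.11, and over all genes 1.24.

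How cartilage spots were drawn changed this picture. At 3000 CPM, which left 288 spots, the ratio of Scx was 1.59 (1.32 to 1.90), and those of Tnmd, Tppp3 and Cilp passed below 1, at 0.941, 0.645 and 0.730. Without mitochondrial, haemoglobin and adult myofibre genes in the total Scx was at 1.77. At 300 CPM, which took in 1690 spots, Scx, Mkx and Tnmd had ratios of 2.32, 3.14 and 3.19, and Prg4, Cilp2 and Col22a1 passed above 1, at 1.32, 1.76 and 1.89. Of the 8 members only Scx had an interval wholly above 1 with each of the 4 settings run.

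**Figure D4:**
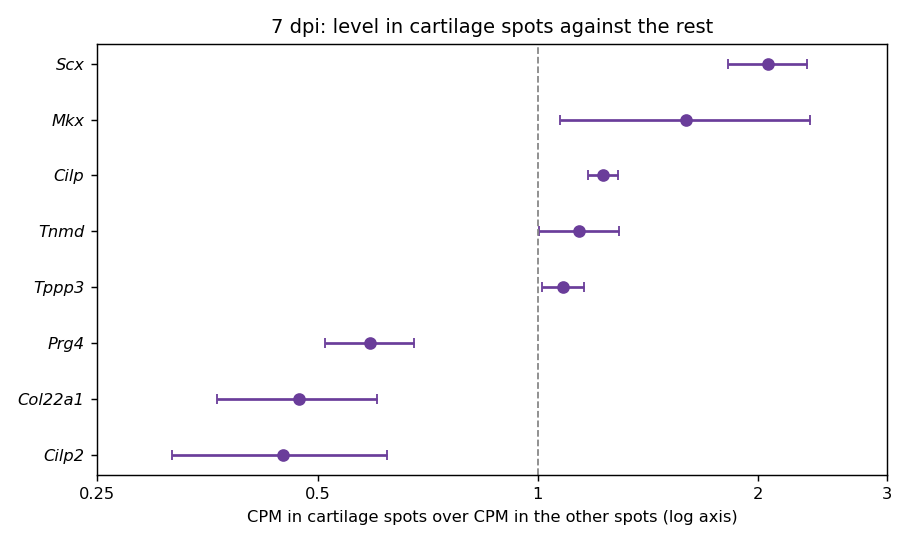
CPM in the 838 cartilage spots at 7 dpi over CPM in the other spots of the section, on a log axis, with exact conditional binomial 95% intervals and a dashed line at 1. Scx lies highest, at 2.06, and Prg4, Col22a1 and Cilp2 lie below 1.

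The spots of each section were also grouped into regions by their whole transcriptome, leaving out the 8 members and the marker genes, and each region is called by its leading genes. Day 0 had 5 regions and the later days 8 each. At day 0 all 8 members were highest in 1 region of 267 spots led by Fmod, Sfrp2 and Eln, which held 58.1% of Tnmd, 58.2% of Col22a1 and 61.9% of Cilp2 UMIs, but 18.6% of Scx UMIs. The level of Scx there was 6.66 CPM (4.82 to 8.97) and between 3.87 and 6.04 CPM in the other 4 regions, so its highest region did not stand apart from the next. The region of 267 spots was also the highest in fibroblast, smooth muscle and macrophage marker genes, at 961, 741 and 593 CPM. How many of all genes were highest there was not counted, so 8 of 8 is not read as a trait of the set.

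At 1 dpi Scx stood apart in a region of 211 spots led by the slow-fibre genes Myh7, Myl2 and Tnnc1. It reached 63.8 CPM there against at most 20.9 CPM in the other regions, and the region held 36.5% of its UMIs. Neither Tnmd (3.57 CPM) nor Col22a1 (2.55 CPM) was high in this region. Prg4 was highest, at 234 CPM, in 446 spots led by Slfn4, Clec10a and Retnla, genes of myeloid cells. Tendon RNA lay in these 446 spots too. Fmod and Kera stood there at 141 CPM, beside 162 CPM in the region richest in the pair. Kera, Thbs4 and Chad summed to 715 CPM, the highest of any region that day. With finer grouping, 79 spots led by Tnmd, Angptl7 and Cilp2 separated, with Fmod and Kera at 916 CPM. They had 65.2 CPM of Tnmd, 100.2 of Cilp2, 48.3 of Col22a1 and 727 of Prg4, but 26.6 CPM of Scx, below the 63.2 CPM of the slow-fibre region.

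At 3 dpi Scx was again highest in the region led by Myh7, Tnnc1 and Sln (373 spots, 132 CPM), which also had 1342 CPM of regenerating muscle genes. Cilp was highest there too, at 366 CPM. With finer grouping both were highest in 181 spots led by Myh3, Mymk and Mymx, genes of newly formed muscle fibres, with 151 CPM of Scx and 422 of Cilp. Tnmd (125 CPM), Cilp2 (106), Col22a1 (19.7), Mkx (8.95) and Prg4 (797) were highest in 69 spots led by Wfdc21, Cfd and Hp, the last 2 of which fat cells make, in which Fmod and Kera reached 1979 CPM and 5 adipocyte genes 12001 CPM. The fat-gene region of day 0, with 2085 CPM of adipocyte genes, had 5.94 CPM of Tnmd. That of 1 dpi, with 1535 CPM of adipocyte genes, had 0 Tnmd UMIs. Both held far less adipocyte RNA than the region at 3 dpi, so they cannot show what fat adds to its levels. Tendon and fat RNA thus shared spots in the 3 dpi section, and the part of fat in these levels was not tested.

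At 7 dpi the peaks lay in different regions. Scx was highest, at 49.5 CPM, in 274 spots led by the cartilage genes Col10a1, Col9a1 and Col2a1, where Tnmd stood at 40.0 CPM and Col22a1 at 5.22. Tnmd (58.6 CPM), Cilp2 (30.1), Col22a1 (28.6), Mkx (7.01) and Prg4 (166) were highest in 181 spots led by Mt2, Mt1 and Rrad. Cilp was highest in the slow-fibre region (309 spots led by Myh7, Myl2 and Myl3) at 353 CPM, and Tppp3 at 131 CPM in 322 spots led by Myh8, Myh3 and Gpnmb. With finer grouping, 113 spots led by Plekhg4, Cxcl10 and Lrrc15 had the highest Scx (69.1 CPM), Tnmd (60.8) and Mkx (7.54) levels, with cartilage genes at 3383 CPM. The 161 spots led by Matn1, Col10a1 and Meltf, in which cartilage genes reached 16919 CPM, had 20.8 CPM of Scx and 9.79 of Tnmd. In this finer grouping Scx (58.99 to 80.5) thus stood highest in a region of intermediate cartilage RNA. Tnmd (51.3 to 71.5) did not stand apart there from the 184 spots led by Mt2, Mt1 and Rrad, with 57.9 CPM (47.9 to 69.3), nor did Mkx, with 6.86 CPM (3.75 to 11.5) in those spots. Scx and Tnmd were both lower in the region where cartilage RNA was highest.

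**Figure D5:**
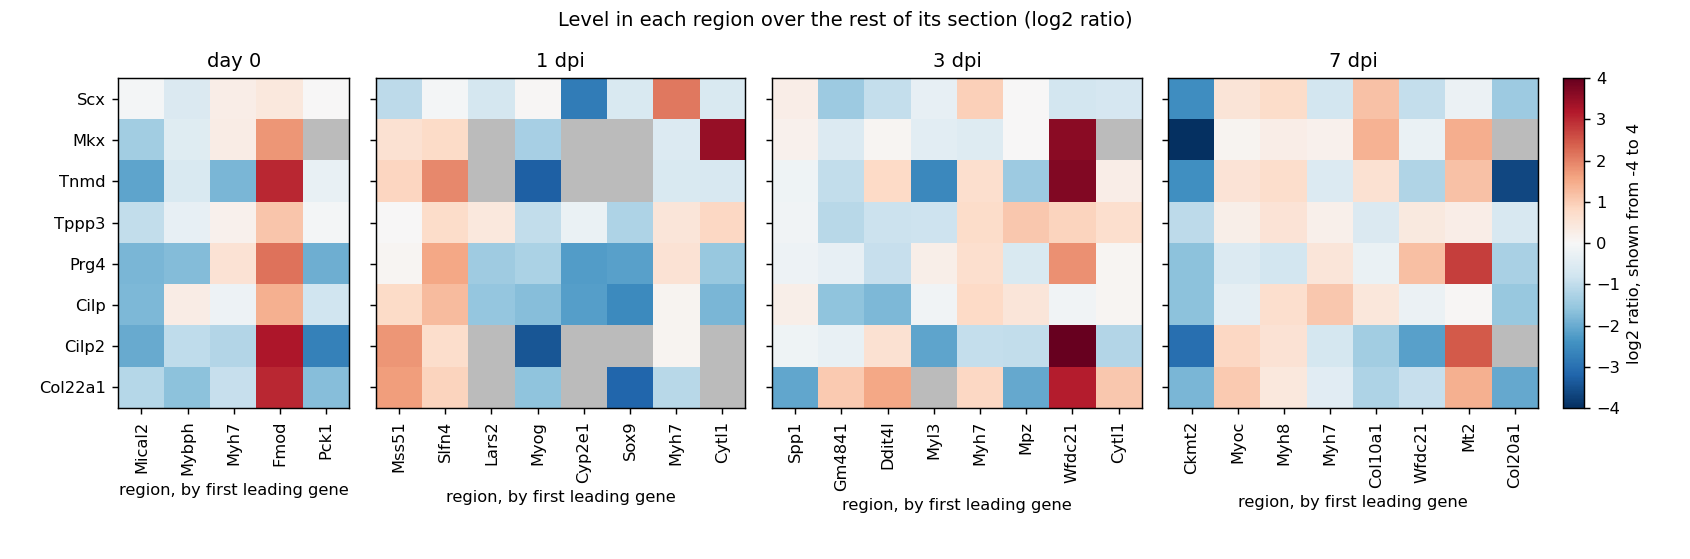
Level of each member in each region over the rest of the same section, as log2 ratios from -4 (blue) to 4 (red). Columns are regions, labelled by their first leading gene, and grey marks a member with 0 UMIs in the region. Scx is reddest in the Myh7 regions of 1 and 3 dpi, where Tnmd and Cilp2 are pale, and these 2 are reddest in the Fmod region of day 0 and the Wfdc21 region of 3 dpi.

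The number of spots holding a pair of members was set against the product of their shares. A pair was counted where this product gave at least 2 spots, which leaves out pairs of rare members. At 2000 UMIs per spot, 3 of 7 counted pairs at day 0 were found together at least 2 times as often, 4 of 10 at 1 dpi, 0 of 16 at 3 dpi and 4 of 17 at 7 dpi. Among the counted pairs at 1 dpi these were Prg4 with Cilp2 at 4.64 times, Tnmd at 4.28, Col22a1 at 4.12 and Cilp at 3.78. At 7 dpi they were Tnmd with Col22a1 at 4.21, Prg4 with Col22a1 at 2.56, Scx with Tnmd at 2.50 and Tnmd with Prg4 at 2.39. Scx with Tnmd stood at 1.29 times at 3 dpi. Some pairs of rarer members that were not counted had higher ratios on few spots. Tnmd with Col22a1 stood at 19.97 times at day 0 (6.45 spots, mean of 20 draws), Cilp with Cilp2 at 7.28 times at 1 dpi (6.25 spots) and Tnmd with Cilp2 at 10.1 times at 3 dpi (6.65 spots). The counts of pairs thus depend on how abundant the members were, and the pairs that could be counted differed between days. Pairs of other genes were not examined, so these counts are not read as a trait of the set. At most 53.4 spots were shared by any pair at day 0 (Tppp3 with Cilp, mean of 20 draws), so the smaller ratios rest on few spots.

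Across spots with at least 2000 UMIs, the gene whose level followed each member most closely was found by Pearson's r, a description over 2090 to 3020 spots that share a section and its depth. At day 0 Tnmd ran most like Fmod (0.62), Col22a1 (0.60) and Col12a1 (0.49), and Scx most like Col22a1 (0.29), Col12a1 (0.27) and Tnmd (0.27). At 1 dpi Scx ran instead most like the slow-fibre genes Tnni1 (0.28), Myl2 (0.27) and Myh7 (0.27), and at 3 dpi most like Myl4 (0.43), Myog (0.42) and Tmsb10 (0.41), of which Myl4 and Myog are genes of regenerating muscle. At 7 dpi it ran most like Fmod (0.32). By Spearman's rho, a correlation of ranks, at 2000 UMIs per spot, Scx at 3 dpi was closest to Tmsb10 (0.13). Its rho with Myl4 was then 0.10 and with Myog 0.083, and at 7 dpi that with Fmod was 0.067. The closest genes of Scx at 3 and 7 dpi thus depend on the measure. Its values at day 0 and 1 dpi are weak, and none of the values for Scx is read as a finding. At 3 dpi Tnmd still ran most like the tendon genes Fmod (0.55), Comp (0.52) and Chad (0.50), Cilp2 most like Chad (0.55), and Cilp most like Postn (0.64), Col1a1 (0.58) and Col3a1 (0.58), genes of matrix-forming fibroblasts.

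Other genes of the same tissues were read from lists, whose counts stand beside the 23.7%, 31.9% and 32% of all genes that were at least 2-fold higher and the 9.93%, 8.53% and 2.13% that were lower at 1, 3 and 7 dpi, with median log2 ratios of 0.27, 0.55 and 0.64. Of 18 tendon collagens and matrix genes, 6 were at least 2-fold higher and 8 lower than day 0 at 1 dpi, 10 higher and 0 lower at 3 dpi, and 16 higher and 0 lower at 7 dpi, with median log2 ratios of -0.06, 1.07 and 2.33 (with TMM factors 5 and 8, 8 and 3, and 15 and 0). At 1 dpi the list split. The fibril collagens Col1a1 and Col3a1 were at 0.095 and 0.092 times day 0, while Fmod was 5.42-fold, Comp 9.15-fold and Chad 10.7-fold higher. At 7 dpi Comp was 382-fold and Col12a1 99.3-fold above day 0, and Comp, like Fmod and Chad, is also a cartilage gene.

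Of 10 regulators and signals of tendon, 4 were higher and 2 lower at 1 dpi, and 7 higher and 0 lower at both 3 and 7 dpi (with TMM factors 3 and 2, 5 and 1, and 4 and 0). Egr1, an early response factor that acts in tendon, was 5.00-fold above day 0 at 1 dpi and 5.98-fold at 7 dpi. Of 7 genes of the sheath and synovial lining, 2, 3 and 3 were higher and 1, 0 and 0 lower (with TMM factors 2, 4 and 1 lower). The median log2 ratio of this list was -0.27, -0.72 and 0.68, below that of all genes at 1 and 3 dpi. With TMM factors it was -1.27 at 3 dpi, so the next gene does not stand for the list. Has1, which makes hyaluronan, had 3 UMIs at day 0 and 32, 865 and 250 on the later days, with ratios of 27.9 (8.73 to 142), 225 (76.9 to 1095) and 87.4 (29.6 to 427), highest at 3 dpi as Prg4 was. Of 12 genes of the myotendinous junction, 6, 4 and 2 were higher and 1, 2 and 1 lower, and with TMM factors 4, 2 and 1 were higher and 1, 2 and 3 lower. By CPM the share of this list that was higher was close to that of all genes at 3 dpi and below it at 7 dpi. The median log2 ratio of this list at 7 dpi was 0.33 by CPM and -0.28 with TMM factors. Among them Ankrd1, a stretch-responsive muscle protein, was 101-fold above day 0 at 1 dpi and 83.9-fold at 3 dpi. The median log2 ratio of the list was 0.94 and 0.56 on these 2 days by CPM, so Ankrd1 does not stand for the list. Col24a1, the other collagen of this list, was at 0.630, 0.319 and 2.52 times day 0, the first with an interval from 0.315 to 1.17.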

How the data were processed

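The authors placed fresh-frozen tibial muscle sections on Visium slides and counted UMIs per gene and spot with Space Ranger, against the mm10 build. The file headers name version 1.2.0, and the study's methods name a later one. The deposited counts are raw whole numbers for 32285 genes in 10835 spots.

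From these counts, UMIs were summed per section or set of spots and divided by the total (CPM). Intervals are 95%: exact Poisson for a CPM, exact conditional binomial for a ratio and Clopper-Pearson for a share. A count under 3 UMIs was entered at 3 UMIs before a gene was called 2-fold different, and genes with at least 10 UMIs were tested against that threshold. With 1 section per day there was no p-value. Shares of spots were taken after thinning to 2000 UMIs (20 draws). Regions came from Leiden clustering (scanpy 1.11.5, leidenalg 0.10.2) of each section on 2000 variable genes, 30 components and 15 neighbours at resolution 0.5. Spots were not treated as cells or replicates, and no doublet caller was run. TMM factors came from edgeR 4.0.16 and size factors from DESeq2 1.42.0. The ratio interval and the thinning were tested on simulated data, and the Poisson interval against its definition. The other steps were not tested in this way. Named genes were the 8 members, the 3 genes most like each by Pearson's r where it was found in at least 5% of spots, the 3 leading genes of each region where a member peaked, with at least 50 CPM there, and genes of the marker lists. Bop1, Tpr and Bmp4 were added after their values were seen. The members and lists were chosen with earlier results of these data known. Promoters were read from RefSeq tables of GRCm38.p6, in which 3 of 8 members matched.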

Additional observations from a re-analysis of the deposited data

How the results depend on the processing

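The counts were recomputed 95 times, and 75 stayed within 1.5 times the reported value. With TMM factors or DESeq2 size factors, 2 members in place of 4 were at least 2-fold higher at 3 dpi. At equal depth per spot, 2 members were at least 2-fold lower at 1 dpi, Col22a1 joining Cilp. The log2 ratio of Tppp3 at 7 dpi, 0.09 by CPM, was -0.52 with TMM factors, -0.55 with DESeq2 size factors, -0.13 without mitochondrial, haemoglobin and adult myofibre genes in the total, and -0.0125 at equal depth per spot. That of Col22a1 at 7 dpi, 0.42 by CPM, was -0.19 with TMM and -0.22 with DESeq2 factors. Among the 24 ratios to day 0, no other whose interval excluded 1 changed sign. Members found in more spots than at day 0 numbered 5 at 3 dpi at 4000 UMIs per spot or without thinning, against 3 at 2000. The share of all genes found in more spots was not computed, so these counts have no background. In cartilage spots 3 members passed 2-fold at 300 CPM, 0 at 3000 CPM and 0 without the genes named above in the total. With 2 groups in place of 4 by myofibre share, 2, 2, 1 and 7 members passed on the 4 days. Pairs found together at least 2 times as often numbered 0, 1, 2 and 1 at 1000 UMIs per spot on the 4 days, and 7 at 1 dpi and 9 at 7 dpi at 4000 UMIs, where 18 and 23 pairs could be counted against 10 and 17. At resolution 1, 6 members at 1 dpi and 3 at 7 dpi were highest in the region richest in Fmod and Kera, against 2 and 1. All genes were not counted in this way. By Spearman's rho at equal depth, 1 member at 1 dpi in place of 2 had a tendon matrix gene or member as its closest gene. The cause of these differences was not tested. No paired analysis was possible because each day has 1 section and the labels carry no replicate numbers. Depth limits Mkx most, with 12 to 115 UMIs per section.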
